A study of Homo sapiens with 4 samples.

Results

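The 10 genes described here, DIRAS3, PLAGL1, MEST, PEG10, SGCE, MEG3, H19, CDKN1C, PHLDA2 and GRB10, are known imprinted genes, taken by symbol from the 23228 gene symbols counted in U87 MG, an established glioblastoma line of human origin. They were selected on their fold changes between PELP1 siRNA and control siRNA in these same libraries, so their differences between the groups are given as a description, without a test, and support nothing further. Both groups were U87 cells grown in DMEM with serum and transfected with oligofectamine, and RNA was taken 72 hours later. The control group received control siRNA and the other group siRNA against PELP1, a scaffold protein of chromatin and nuclear receptor complexes, with 2 libraries in each group and no other treatment named. The labels do not say whether the duplicates came from separate cultures, so the spread between them may be technical. The line is a single cell line without a genotype given in the labels.

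Imprinted genes are expressed mainly from the copy inherited from 1 parent. The active copy is set by DNA methylation laid down in the germ line at control regions, which many imprinted genes share in clusters, and kept through cell division afterwards. In mammals many paternally expressed imprinted genes promote growth and many maternally expressed ones restrain it, and loss of imprinting is common in tumours. DIRAS3, PLAGL1, MEST, PEG10 and SGCE are expressed from the paternal copy, and MEG3, H19, CDKN1C and PHLDA2 from the maternal copy. GRB10 is counted here as maternally expressed, although in the brain its expression comes from the paternal copy. Read counts per gene do not separate the parental copies, so every value below is the sum over both.

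The 2 genes with the largest differences, DIRAS3 on chromosome 1 and MEG3 on chromosome 14, are shown by the 300 bases around a start site (250 before it and 50 after it, RefSeq promoter table of GRCh38.p14, placed in GRCh37 by exact match). The first is chr1:68516261-68516560 on the minus strand and the second chr14:101292195-101292494 on the plus strand, the first of 3 overlapping MEG3 windows. The capitals mark TGCCGC or its reverse complement GCGGCA, the 6-base word recognised by the imprint-keeping zinc finger protein ZFP57.
DIRAS3: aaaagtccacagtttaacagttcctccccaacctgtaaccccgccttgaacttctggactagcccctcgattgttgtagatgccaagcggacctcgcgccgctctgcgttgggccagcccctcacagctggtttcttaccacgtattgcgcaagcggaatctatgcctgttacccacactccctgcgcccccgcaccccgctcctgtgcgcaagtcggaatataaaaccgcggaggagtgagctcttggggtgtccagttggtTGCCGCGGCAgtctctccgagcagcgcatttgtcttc
MEG3: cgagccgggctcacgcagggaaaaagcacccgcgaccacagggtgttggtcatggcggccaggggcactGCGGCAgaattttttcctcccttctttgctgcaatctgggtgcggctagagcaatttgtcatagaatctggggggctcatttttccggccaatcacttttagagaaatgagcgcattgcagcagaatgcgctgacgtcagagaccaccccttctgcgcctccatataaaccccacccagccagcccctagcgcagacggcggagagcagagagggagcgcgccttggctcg
In the DIRAS3 window the word occurs on both strands in 2 copies that overlap each other, and in the MEG3 window it occurs once. Of all 35116 windows of this length in the table, 16.7% hold it on either strand. The DIRAS3 window held 21 CG dinucleotides and the MEG3 window 19, against a median of 14 over all windows. Neither count is unusual, since 60.5% and 57.1% of all windows held fewer. TATAAA, searched on both strands, occurs once in each window and in 11.5% of all windows. The table matched 6 of the 10 genes, and PEG10, SGCE, CDKN1C and PHLDA2 were not matched.

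Host transcripts of microRNAs are frequent among imprinted genes, and 3 of the 10 carry a microRNA whose mature sequences are printed from RefSeq because the deposited counts have a separate line for each. The capitals mark the seed, bases 2 to 8.
hsa-miR-335-5p: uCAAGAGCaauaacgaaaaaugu
hsa-miR-335-3p: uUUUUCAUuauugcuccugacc
hsa-miR-770-5p: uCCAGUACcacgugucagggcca
hsa-miR-675-5p: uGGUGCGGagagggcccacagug
hsa-miR-675-3p: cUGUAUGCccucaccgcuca
MIR335 lies in an intron of MEST, and MIR770 lies in an exon of an annotated MEG3 transcript. MIR675 is hosted by H19. MIR2392, whose sequence is not printed, also lies within the span of MEG3 and has its own line, at 0 counts in each library. The lines of MIR335, MIR675 and MIR770 held 0 counts in each of the 4 libraries, and the values of MEST and MEG3 below are counts of the host genes, which do not measure the mature microRNAs. No seed is shared by any pair of these sequences.

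Reads assigned to genes came to 18670162 to 22858988 per library. PELP1 fell in the silenced cells, with 74.0 and 78.1 CPM in control libraries 1 and 2 and 15.2 and 17.7 CPM in PELP1 siRNA libraries 1 and 2, where CPM is a count per 1000000 reads scaled by TMM. Of 13234 genes tested with edgeR's quasi-likelihood test, 27.9% passed a Benjamini-Hochberg adjusted p of 0.05, 12.9% as higher and 15.0% as lower with PELP1 siRNA. Of 8 markers of this line and of glia, VIM, CD44 and FN1 were abundant, S100B held 0 or 1 count and SOX2 0 to 2 counts per library, and GFAP held 24 to 35. CDKN2A, CDKN2B and MTAP, known to be deleted in U87, held 0 counts in all libraries. The summed level of the 8 markers was 12800 CPM in both control libraries and 9940 to 10300 CPM with PELP1 siRNA, and 4 of the 6 tested (VIM, NES, CD44 and FN1) were lower. The part of this shift in the results below was not tested. The immune, oligodendrocyte, epithelial, and trophoblast and germ cell markers summed to at most 21.4, 1.52, 1.73 and 1.12 CPM in any library. Among the epithelial markers, which summed to 1.03 to 1.19 CPM in the controls and 1.58 to 1.73 CPM with PELP1 siRNA, EPCAM was higher at 13 and 20 counts against 33 and 29 (log2 fold change 1.02, edgeR adjusted p = 0.0188). The 5 neuronal markers summed to 72.6 to 78.2 CPM in the controls and 57.8 to 62.9 CPM with PELP1 siRNA, and the 4 endothelial markers to 14.9 to 15.3 and 10.9 to 11.4 CPM, with 1 marker of each list lower (SNAP25 and KDR). These lists were not uniform. The neuronal RBFOX3 and endothelial CDH5 held 0 to 2 and 0 to 5 counts per library, and SLC17A7, VWF and PECAM1 at most 3, 11 and 28. SNAP25 held 600 to 1089 counts, SYT1 279 to 371, GAD1 165 to 289 and KDR 180 to 294. Nearly all of the immune sum was CSF1R, at 336 to 470 counts.

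Among the 8 of the 10 genes abundant enough for the test, 4 of the 5 paternally expressed genes had a positive log2 fold change and all 3 maternally expressed genes a negative one. The median log2 fold change was 0.52 over the 5 paternally expressed genes and -0.51 over the 3 maternally expressed genes, against 0.001 over all genes tested. This split rests on counting GRB10 (-0.13) as maternally expressed, although in the brain it is expressed from the paternal copy. The copy active in U87 cannot be read from these counts. In all 8 the 2 libraries of one group lay above those of the other, as they did in 64.2% of all genes tested. Since the 10 genes were picked with these values known, nothing is read from that count. In bulk RNA, fewer cells of a type and less RNA per cell cannot be told apart.

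**Figure D1:**
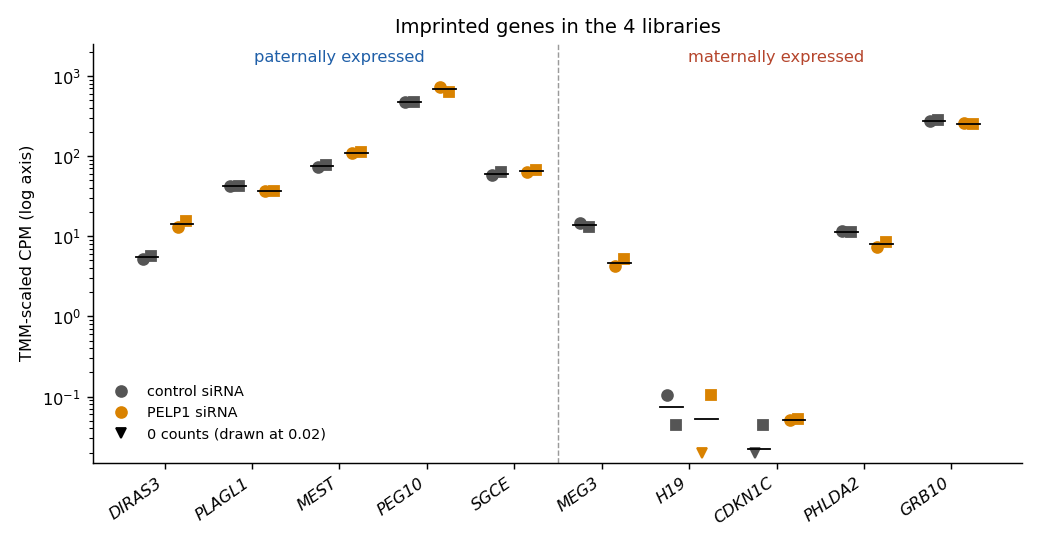
TMM-scaled CPM (log axis) of the 10 imprinted genes in each library, with circles for replicate 1, squares for replicate 2, triangles for libraries with 0 counts and bars for group means. DIRAS3 stood at 5.26 and 5.71 CPM in the control libraries and 13.0 and 15.5 CPM with PELP1 siRNA, while MEG3 stood at 14.7 and 13.1 CPM and then at 4.21 and 5.16 CPM.

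DIRAS3 (ENSG00000162595, GRCh37 chromosome 1, 68511569 to 68517400, minus strand) encodes a small GTPase of the Ras superfamily that restrains growth and takes part in autophagy. It held 102 and 128 counts in the control libraries and 257 and 294 counts with PELP1 siRNA, which is 5.26 and 5.71 CPM against 13.0 and 15.5 CPM. Both silenced libraries lay above both controls, and the mean went from 5.49 ± 0.319 to 14.3 ± 1.73 CPM (SD, n = 2 per group). The log2 fold change was 1.37 (SE 0.14), a level 159% above the control, and 99.3% of the genes tested had a smaller absolute change. None of its exon bases is shared with another counted gene that has GENCODE coordinates.

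MEST and PEG10, in separate imprinted regions of the long arm of chromosome 7, had differences of like size. MEST (GRCh37 chromosome 7, 130126012 to 130146306, plus strand), a hydrolase of the alpha/beta fold family made in mesoderm and growing fat, stood at 74.0 and 76.5 CPM in the controls and at 109 and 111 CPM in the silenced cells. Its log2 fold change was 0.55 (SE 0.072). PEG10 (GRCh37 chromosome 7, 94285637 to 94299007, plus strand), a protein derived from a retrotransposon gag-pol gene and required for the placenta, stood at 479 and 471 CPM in the controls. With PELP1 siRNA it stood at 730 and 635 CPM, a log2 fold change of 0.52 (SE 0.067), and the silenced libraries differed more from each other than the controls did (SD 66.8 against 5.56 CPM). MEST shares 14.9% of its exon bases with MESTIT1 and COPG2 on the opposite strand, and the strand setting of the counting is not given in the sources used here.

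SGCE, the epsilon subunit of the sarcoglycan complex of the cell membrane, begins next to PEG10 on the opposite strand (GRCh37 chromosome 7, 94153516 to 94285884), so that the pair is transcribed outwards from a common region. Its libraries read 58.2 and 62.5 CPM with control siRNA and 63.5 and 66.6 CPM with PELP1 siRNA. Both silenced libraries lay above both controls by a narrow margin, and the log2 fold change was 0.11 (SE 0.080), against 0.52 (SE 0.067) for PEG10. It was 0.057 when control library 1 was left out and 0.16 when control library 2 was. PEG10 shares 3.27% of its exon bases with SGCE.

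PLAGL1 (GRCh37 chromosome 6, 144261437 to 144385736, minus strand), a zinc finger transcription factor that restrains growth and acts on other imprinted genes, was the 1 paternally expressed gene of the 5 with a negative value. It stood at 42.1 and 42.0 CPM in the controls and at 37.2 and 36.7 CPM in the silenced cells, a difference of -0.19 (SE 0.087) on the log2 scale. The duplicates lay closer together than the groups did, with SDs of 0.0959 and 0.308 CPM.

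Of the maternally expressed genes, MEG3 (ENSG00000214548, GRCh37 chromosome 14, 101245747 to 101327368, plus strand), a long non-coding RNA known as a growth suppressor that is silenced in many gliomas, differed most. It held 284 and 294 counts in the control libraries and 83 and 98 with PELP1 siRNA. The levels were 14.7 and 13.1 CPM against 4.21 and 5.16 CPM, so that both silenced libraries lay below both controls. Its mean went from 13.9 ± 1.08 to 4.69 ± 0.672 CPM (SD, n = 2 per group), a log2 fold change of -1.56 (SE 0.15) and a level that decreased by 66.2%. MEG3 had a larger absolute change than 99.6% of the genes tested.

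The span from 200 kb before MEG3 to 400 kb after it was searched for genes lying wholly within it and placed in GENCODE. Outside the small RNA classes, the other symbols were DLK1, RTL1 and MEG8, and none of these entered the test. BEGAIN, whose near end is 192 kb before MEG3, reaches beyond that span and is given with the neighbours below. The growth factor relative DLK1, paternally expressed from the same cluster, held 0 counts in all 4 libraries, which allows at most 0.134 to 0.158 CPM (3 counts per library). MEG8 held 2, 1, 2 and 0 counts. Of the 47 microRNA and 37 snoRNA lines of this region, 2 and 3 held any count, and none entered the test. The microRNA and snoRNA lines of the region are short RNAs that a library of this kind captures poorly, and no statement about their mature forms can be drawn from these values.

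PHLDA2 (GRCh37 chromosome 11, 2949503 to 2950650, minus strand), a small pleckstrin homology protein that limits placental growth, stood at 11.5 and 11.2 CPM in the controls and at 7.41 and 8.54 CPM with PELP1 siRNA. Both silenced libraries lay below the controls, with a log2 fold change of -0.51 (SE 0.13). GRB10 (GRCh37 chromosome 7, 50657760 to 50861159, minus strand), an adaptor that damps signalling by the insulin and IGF1 receptors, stood at 275 and 278 CPM in the controls and at 258 and 249 CPM in the silenced cells. Its groups did not overlap, and the log2 fold change was -0.13 (SE 0.063). GRB10 has several start sites whose transcripts are summed in 1 count.

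H19 and CDKN1C, on chromosome 11 in the same imprinted region as PHLDA2, were close to the detection limit. H19, a non-coding RNA that shares its control region with IGF2, held 2 and 1 counts in the controls and 0 and 2 with PELP1 siRNA. CDKN1C, the cyclin-dependent kinase inhibitor p57, held 0 and 1 counts and then 1 and 1. The 95% Poisson intervals, which cover counting error only, reached at most 0.381 CPM for H19 and 0.294 CPM for CDKN1C, and no difference was detectable at this depth. Neither gene entered the test.

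Per kilobase of exon, PEG10 was the most abundant of the 10 in the controls (71.5 and 70.4 CPM per kb). It was followed by GRB10 (28.0 and 28.4), MEST (15.5 and 16.0), PHLDA2 (12.5 and 12.1), PLAGL1 (6.57 and 6.55), SGCE (2.79 and 2.99), DIRAS3 (1.99 and 2.16) and MEG3 (0.631 and 0.565). None of these neighbours overlapped between the control libraries, while H19 and CDKN1C, last in the order, did. With PELP1 siRNA, DIRAS3 at 4.93 and 5.85 CPM per kb had passed SGCE at 3.04 and 3.19 and overlapped PLAGL1 at 5.80 and 5.73. When the longest transcript was taken as the length, the control means of SGCE (9.63 CPM per kb) and PLAGL1 (9.49) changed places. Their control libraries overlapped at that length, so the order of these genes is not settled there. With that length DIRAS3 stayed below both SGCE and PLAGL1 in every library, with PELP1 siRNA as well. Its passing of SGCE thus holds only for the summed exon length, which is 20876 bases in SGCE against 6270 for the longest transcript. In MEG3 the lengths are 23224 and 12998 bases, and with the longest transcript its control mean of 1.07 CPM per kb stayed below DIRAS3 at 2.29. A shorter transcript would give MEG3 a higher value, and these counts do not show which transcripts were present.

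The other imprinted genes tested lay on both sides of 0 whichever parental copy they are expressed from. Of 39 further paternally expressed genes, 34 were among the counted symbols, 12 of these were at 0 in all libraries and 13 were tested. Of those tested, 6 had a positive and 7 a negative log2 fold change, with a median of -0.028 against 0.001 over all genes tested. Past the threshold, 1 was higher and 2 were lower, or 23.1% beside the 27.9% of all genes. Of 28 further maternally expressed genes, 27 were counted and 14 tested, 6 with a positive and 8 with a negative value (median -0.008). Of these, 3 were higher and 2 lower, or 35.7%. Leaving out control library 1 gave 3 calls, and leaving out control library 2 gave 3. The lists were written from general knowledge, and many of these genes are imprinted only in some tissues or transcripts.

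Among the paternally expressed genes outside the 10, NAP1L5, a relative of nucleosome assembly proteins, rose from 23.7 ± 1.26 to 34.4 ± 2.00 CPM (log2 fold change 0.53, edgeR adjusted p = 1.87e-04, n = 2 per group). ZDBF2, a zinc finger protein, fell from 46.9 ± 1.48 to 32.2 ± 6.98 CPM (-0.54, adjusted p = 6.05e-04), with a value of -0.33 without PELP1 siRNA library 2. MKRN3, a ubiquitin ligase that holds back puberty, fell by 0.38 on the log2 scale (adjusted p = 0.0392), a call lost under 5 alternatives with adjusted p of 0.0730 to 0.414, 3 of which leave out control library 1, control library 2 or PELP1 siRNA library 2. The antisense RNA KCNQ1OT1, which silences the CDKN1C region in cis, stood at 4.51 and 3.94 CPM on average (-0.19, adjusted p = 0.485), with -0.016 without control library 1 and -0.36 without control library 2. IGF2, the growth factor opposite H19, held 0 counts in all 4 libraries, and 20.4% of the bases in its exons also belong to INS-IGF2, a read-through transcript of the same strand. SNRPN held 1 count in all libraries together and shares 23.9% of its exon bases with SNURF.

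Among the maternally expressed genes outside the 10, the protease inhibitor TFPI2 fell from 3749 ± 169 to 2182 ± 31.3 CPM (log2 fold change -0.78, edgeR adjusted p = 8.72e-10, n = 2 per group). CPA4, a carboxypeptidase in the same chromosome region as MEST, rose from 111 ± 2.47 to 151 ± 2.47 CPM (0.45, adjusted p = 2.52e-05). The acetyltransferase NAA60 rose by 0.44 on the log2 scale (adjusted p = 0.00197, and 0.138 without control library 2). GNAS, the stimulatory G protein subunit, rose by 0.28 (adjusted p = 0.00175, and 0.172 without control library 1). BLCAP fell by 0.34 (adjusted p = 0.00227), a call lost at values of -0.32 and -0.35 without control library 1 or 2. IGF2R, the receptor that clears IGF2, stood at 599 and 589 CPM on average (-0.023, adjusted p = 0.811). TFPI2 and CPA4, both counted as maternally expressed, thus moved in opposite directions.

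**Figure D2:**
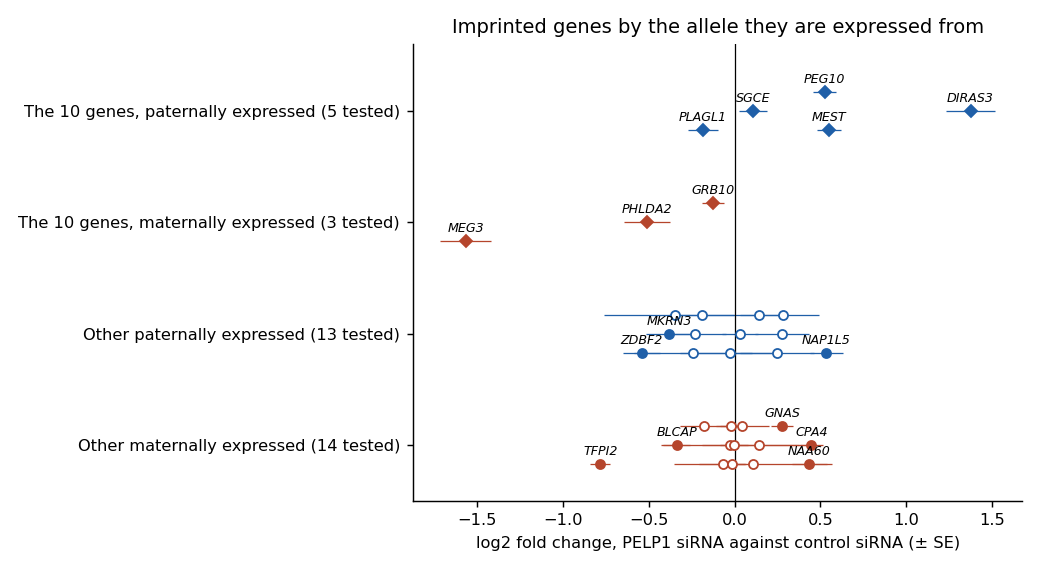
Log2 fold change (PELP1 siRNA against control siRNA, ± SE) of imprinted genes by the parental copy that is expressed; diamonds are the 10 genes, filled circles other imprinted genes past the threshold and open circles those that did not pass. The paternally expressed genes of the 10 reach from -0.19 to 1.37 and the maternally expressed ones from -1.56 to -0.13, and each of the other lists lies on both sides of 0.

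The genes next to the imprinted ones were examined because imprinted genes share control regions. Only symbols found in GENCODE have coordinates. Tested genes counted under symbols not found there, such as FAM127A and NCRNA00263, are left out of the neighbours and distances here. Of 17 nearest tested neighbours, 5 were higher and 1 lower, or 35.3% beside 27.9% of all genes. The nearest tested gene can be far away, up to 3958.8 kb for SEC61G beside GRB10. CPA4, KCNQ1OT1, PPP1R9A and SLC22A18 are also counted among the other imprinted genes above. Leaving out control library 1 or control library 2 gave 2 calls in place of 6, and leaving out PELP1 siRNA library 1 gave 10. GNG12, a G protein gamma subunit next to DIRAS3, fell from 391 ± 10.2 to 189 ± 19.4 CPM (log2 fold change -1.05, edgeR adjusted p = 9.59e-11, n = 2 per group), while DIRAS3 was higher. On its other side WLS, which carries Wnt ligands to the surface, rose by 0.20 (adjusted p = 0.0227, and 0.426 and 0.223 without control library 1 or 2). COPG2, a coat protein subunit that overlaps the end of MEST, rose by 0.29 (adjusted p = 0.0188, and 0.332 and 0.172 without control library 1 or 2).

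CASD1 beside SGCE gave -0.13 on the log2 scale (edgeR adjusted p = 0.390), and -0.20 to -0.056 when 1 library was left out. PPP1R9A beyond PEG10 gave 0.14 (adjusted p = 0.786), with 0.45 without control library 1 and the opposite sign, -0.15, without control library 2. SLC22A18 and NAP1L4, to either side of PHLDA2, had values of -0.18 (adjusted p = 0.386) and 0.045 (adjusted p = 0.639). BEGAIN, the nearest tested gene before MEG3, had a value of -0.42 (adjusted p = 0.0989), with -0.19 (adjusted p = 0.472) without PELP1 siRNA library 1 and -0.66 (adjusted p = 0.00882) without PELP1 siRNA library 2. The next tested gene beyond MEG3, PPP2R5C, a regulatory subunit of protein phosphatase PP2A, lies 900.7 kb away and rose by 0.25 (adjusted p = 0.00859, and 0.280 and 0.169 without control library 1 or 2). Within 1 Mb of any of the 10 genes, 56 other genes with GENCODE coordinates were tested. Of these, 12 were higher and 6 lower, or 32.1%, with a median log2 fold change of 0.011. Around PEG10 the values ran in both directions, with the collagen gene COL1A2 higher (0.44, adjusted p = 5.55e-06) and TFPI2 lower.

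**Figure D3:**
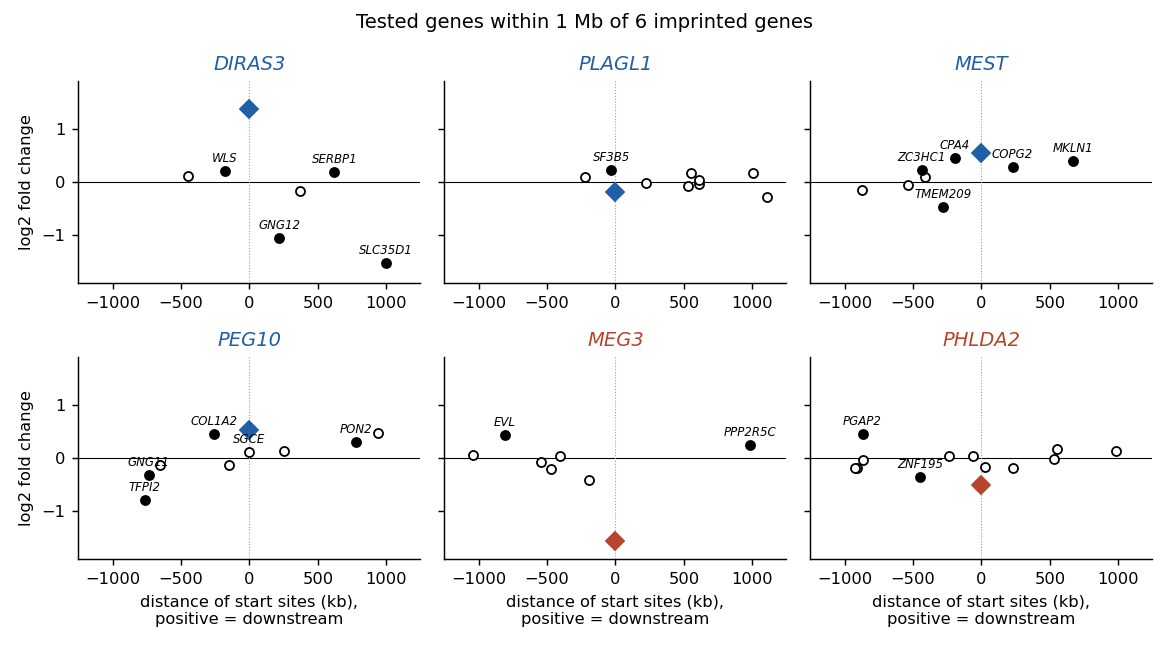
Log2 fold change of the tested genes with GENCODE coordinates within 1 Mb of 6 imprinted genes (diamonds). The horizontal axis is the distance between start sites in kb along the direction of transcription. Filled circles passed the threshold, and open circles did not pass or are another of the 10 genes. DIRAS3 at 1.37 has GNG12 at -1.05 and WLS at 0.20 beside it. SLC35D1, 997.6 kb downstream, has the largest change in that window at -1.53. MEG3 at -1.56 has no tested gene of like size within its window.

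Of 43 factors that set or keep imprints, 36 were tested. Past the threshold, 5 were higher and 2 lower, which left 29 that did not pass, so 19.4% were called beside 27.9% of all genes tested. Their median log2 fold change was 0.035. In place of 7 calls there were 2 when control library 1 was left out, 4 when control library 2 was left out and 14 when either PELP1 siRNA library was left out.

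By role, 2 of 10 tested DNA methylation genes were lower and none higher, beside 15.0% of all genes lower. Of the zinc finger and heterochromatin factors 1 of 11 was higher, of the insulation factors 1 of 6 and of the histone modifiers 3 of 9, with none lower in these roles, beside 12.9% of all genes higher. UHRF1, which brings the maintenance methylase DNMT1 to newly copied DNA, fell from 46.3 ± 2.28 to 33.4 ± 1.21 CPM (log2 fold change -0.47, edgeR adjusted p = 3.46e-04, n = 2 per group). TDG, the glycosylase that removes oxidised methylcytosine, fell from 13.0 ± 0.248 to 8.52 ± 0.873 CPM (-0.61, adjusted p = 9.30e-04). DNMT1 itself read 242 and 246 CPM with control siRNA and 223 and 232 CPM in the silenced cells (-0.10, adjusted p = 0.243, and 0.00972 without PELP1 siRNA library 2).

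ZFP57, the zinc finger protein whose word is marked in the sequences above, held 0 counts in all 4 libraries, while its partner TRIM28 stood at 413 and 411 CPM on average (log2 fold change -0.0078, edgeR adjusted p = 0.943). TRIM28 gave -0.10 (adjusted p = 0.0335) without PELP1 siRNA library 2 and 0.087 (adjusted p = 0.0643) without PELP1 siRNA library 1. CTCF, the insulator protein that binds the control region of H19, stood at 80.8 CPM in both groups (adjusted p = 0.996), with values of -0.027 to 0.026 on the log2 scale when 1 library was left out. Of the chromatin enzymes, the demethylase KDM1A rose by 0.35 on the log2 scale (adjusted p = 3.73e-04, and 0.0689 without control library 1). EZH2, the methylase of the Polycomb complex, rose by 0.29 (adjusted p = 0.00541), a call lost at 0.287 and 0.295 on the log2 scale without control library 1 or 2. ARID4A, a binding partner of RB1, rose by 0.40 (adjusted p = 0.00608), a call lost at 0.29 without control library 1. The cohesin subunit RAD21 rose by 0.25 (adjusted p = 0.00492), a call lost at 0.24 and 0.27 without control library 1 or 2. CBX1, named after its value was seen, completed the 5 with 0.19 (adjusted p = 0.0413). Its call was lost without control library 1 (0.335), without control library 2 (0.425), with DESeq2 (0.0795) and with no filter on low counts (0.0509).

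**Figure D4:**
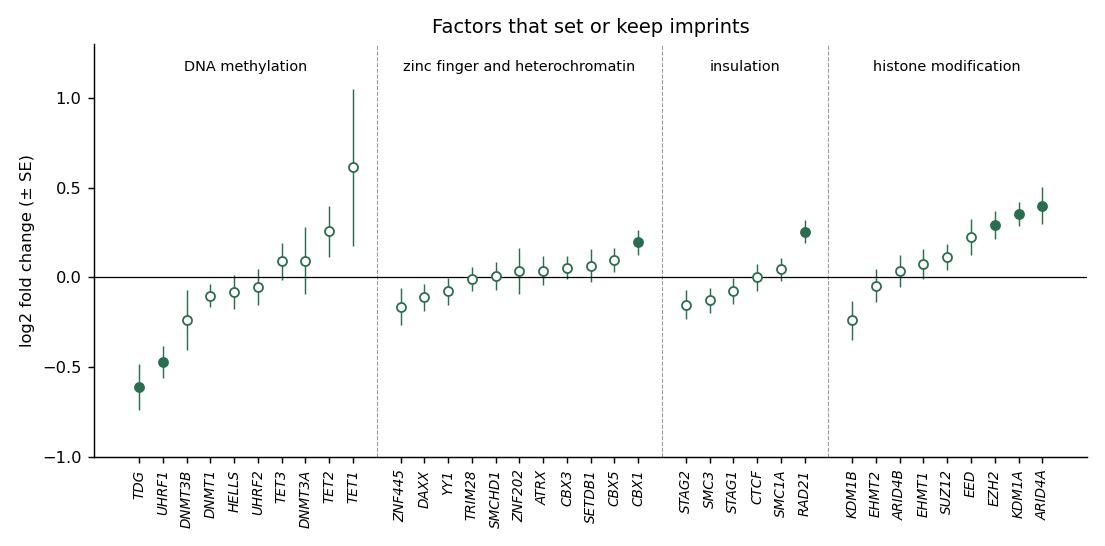
Log2 fold change (± SE) of 36 tested factors that set or keep imprints, by role; filled circles passed the threshold. UHRF1 at -0.47 and TDG at -0.61 are the 2 that were lower, and CTCF, TRIM28 and SMCHD1 lie near 0.

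GRB10, IGF2R and H19 touch the IGF pathway, whose other genes were fixed as a list. Of 27 genes of the IGF axis and its transducers, 23 were tested, 3 were higher and 8 lower, or 47.8% called beside 27.9% of all genes, with a median log2 fold change of -0.047. In place of 11 calls there were 6 when control library 1 was left out. IGFBP1, a secreted IGF binding protein, fell by 1.38 on the log2 scale (edgeR adjusted p = 6.18e-08) and IGFBP3 by 0.54 (adjusted p = 3.30e-05). IGF2BP3, which binds IGF2 mRNA, fell from 185 to 108 CPM (-0.77, adjusted p = 5.18e-08). IRS1, a receptor substrate, fell from 191 to 145 CPM (-0.40, adjusted p = 8.85e-05). The kinase AKT2 rose by 0.24 (adjusted p = 0.00819, and 0.146 and 0.306 without control library 1 or 2) and PIK3R1, a regulatory subunit of PI3 kinase, by 0.27 (adjusted p = 0.0441, and 0.276, 0.294 and 0.271 without control library 1, control library 2 or PELP1 siRNA library 1), at 0.12 in the last of these fits and 0.41 without PELP1 siRNA library 2. The receptors IGF1R (0.10, adjusted p = 0.492) and INSR (-0.028, adjusted p = 0.889) did not pass.

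Of 21 relatives of the 10 genes by sequence family, 17 were tested, 3 were higher and 5 lower, or 47.1% beside 27.9% of all genes. In place of 8 calls there were 4 when control library 1 was left out and 3 when control library 2 was. DIRAS1, the relative of DIRAS3, fell from 21.3 to 16.6 CPM (log2 fold change -0.36, edgeR adjusted p = 0.0159, and 0.124, 0.182 and 0.0611 without control library 1, control library 2 or PELP1 siRNA library 1). Of the relatives of CDKN1C, the kinase inhibitor CDKN1A fell from 263 to 99.4 CPM (-1.41, adjusted p = 3.06e-13) and CDKN1B rose from 50.7 to 73.2 CPM (0.53, adjusted p = 1.93e-05). GRB14, the adaptor most like GRB10, fell by 0.72 (adjusted p = 1.08e-04). The sarcoglycan SGCD rose by 0.41 (adjusted p = 0.00851, and 0.235 without control library 2; 0.26 on the log2 scale without PELP1 siRNA library 1), and the PEG10 relative FAM127A by 0.22 (adjusted p = 0.0405, and 0.384, 0.317 and 0.0501 without control library 1, control library 2 or PELP1 siRNA library 2; 0.14 on the log2 scale in the last).

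Among genes of at least 5 CPM on average, the 3 whose centred log2 CPM lay nearest to that of DIRAS3 over the 4 libraries were BFSP1, NCRNA00263 and CNIH2 (Euclidean distances of 0.20, 0.20 and 0.24). BFSP1, a lens filament protein, read 7.43, 7.05, 17.1 and 17.8 CPM in control libraries 1 and 2 and PELP1 siRNA libraries 1 and 2. For MEG3 they were the hyaluronan synthase HAS1, CDKN1A and the protease ADAMTS5 (0.14, 0.18 and 0.22). HAS1 read 112 and 105 CPM in the controls and 39.7 and 44.0 CPM with PELP1 siRNA. With 4 libraries in 2 groups this likeness describes only the size of the group difference.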

How the data were processed

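Libraries were made from total RNA and read as 50 bp single ends, per the labels' protocols. CASAVA 1.8.2, TopHat2 2.0.8b and HTSeq were used with hg19 (GRCh37), per the submitters' processing notes. The deposited values are raw counts per gene symbol, left unscaled by the authors. For the annotation release and the strand setting, nothing is given in the sources used here. The counter's 5 summary lines (36.0 to 37.6% of all counts) were left out.

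The 4 libraries were fitted with edgeR 4.0.16 (R 4.3.3, robust quasi-likelihood, TMM, group as the only term) over 13234 genes past filterByExpr (minimum count 10, total 15). The spread between libraries gave a biological coefficient of variation of 5.23%, to which counting error adds, most in genes of few counts. Every adjusted p of a single gene is Benjamini-Hochberg adjusted over all genes tested. Coordinates and exon overlaps come from GENCODE v44lift37. Counted symbols not found there have no coordinates and enter neither the overlaps, the neighbours nor the 1 Mb windows. Older symbols were matched through the RefSeq gene table. The genes and lists were chosen with earlier results of these data known. The named genes are PELP1, the 10 genes, up to 4 called genes per list and direction with the smallest adjusted p, the neighbours and a few fixed regulators. A result that this rule covers is not reported here, and 4 neighbours (LTV1, MRPL23, FIGNL1 and SEC61G) enter only the counts. The alternatives covered scaling, filters, DESeq2 1.42.0, limma-voom (limma 3.58.1), a fit that is not robust, a replicate block and leaving out each library. The script was tested on simulated data.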

Additional observations from a re-analysis of the deposited data

How the results depend on the processing

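The 8 tested imprinted genes kept the sign of their log2 fold change under all 13 alternative settings. Their groups did not overlap and the genes were picked on these same values, so a kept sign is no further support. Ranges were 1.25 to 1.50 for DIRAS3, 0.53 to 0.60 for MEST, 0.42 to 0.63 for PEG10, 0.057 to 0.16 for SGCE, -0.20 to -0.14 for PLAGL1, -1.71 to -1.42 for MEG3, -0.61 to -0.40 for PHLDA2 and -0.15 to -0.078 for GRB10. With DESeq2's Wald test 1133 genes were higher in place of 1712, and 5 relatives were called in place of 8. Leaving out 1 library gave 523 to 2724 higher and 943 to 2804 lower genes. It gave 3 to 5 called other maternally expressed genes, 2 to 14 imprint factors, 6 to 15 genes of the IGF axis, 3 to 10 relatives and 2 to 10 neighbours. The single library left in a group is taken to vary as the libraries of the other group do. The PELP1 siRNA duplicates differed more from each other than the control duplicates did (mean chi-square per gene of their counts 6.8 against 2.03). A fit without a control library takes its spread from the PELP1 siRNA pair alone. A call can therefore be lost there with little change in the log2 fold change. Among the listed genes and neighbours outside the 10, the calls lost with DESeq2 were those of MKRN3 (adjusted p = 0.179), PIK3R1 (0.116), SF3B5 (0.0908), FAM127A (0.0883), CBX1 (0.0795), DIRAS1 (0.0773), COPG2 (0.0572) and PLAGL2 (0.0505). The call of PIK3R1 was also lost with limma-voom (0.0533), that of CBX1 without a filter (0.0509), and those of MKRN3 (0.0730), PLAGL2 (0.0649) and PHLDA1 (0.0608) with total count scaling. Calls gained were CD81 with upper quartile (0.0455) and total count scaling (0.0176), LDOC1 (0.0399), EED (0.0442) and IGFBP5 (0.0498) with total count scaling, and TET2 (0.0312) and AKT1 (0.0437) without a filter. Total count scaling shifted the median log2 fold change by 0.048 and made 41.3% of called genes lower. The replicate numbers did not pair the libraries (r = -0.0623 across 10594 genes), and the fit with a replicate block called 1613 higher and 1968 lower genes and lost FAM127A (adjusted p = 0.0574) and CBX1 (0.0676). Genes of a few counts, such as H19 and CDKN1C, are limited by depth.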
